A study of Mus musculus with 6 samples.

Results

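Complement is a cascade of plasma proteins that marks and lyses microbes, and macrophages both make several of its proteins and carry its receptors. The classical pathway starts when C1q, built from A, B and C chains, binds antibody or a damaged surface. The alternative pathway starts from C3 itself, which is cleaved by an enzyme made of C3b and factor B and held together by properdin. Cleavage of C3 and C5 releases the anaphylatoxins C3a and C5a, which act through the receptors encoded by C3ar1 and C5ar1. The genes described here are 9 such components and receptors, chosen by name from the 29957 genes of the deposited table. They are C1qa, C1qb and C1qc (the C1q chains), C3, Cfb (factor B), Cfp (properdin), Serping1 (the C1 inhibitor), C3ar1 and C5ar1.

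RNA was sequenced from wild-type mouse bone marrow-derived macrophages (BMDMs), which are macrophages grown from marrow in culture. The 6 libraries form a group of 3 controls and a group of 3 treated with LPS, a bacterial ligand of the receptor TLR4, and then with PA-BSA, a free fatty acid that the study used to activate the Nlrp3 inflammasome instead of ATP. Dose, time, animal age and sex are not stated in the labels, and a group with LPS alone was not analysed here. The labels do not say whether the controls received LPS or the BSA carrier, so the contributions of LPS and of PA-BSA cannot be told apart, and a difference after LPS and PA-BSA is one between the libraries so labelled and those labelled control. The labels do not name separate animals or cultures, so p-values measure the spread between samples that may be technical replicates. Levels are FPKM, which counts fragments by transcript length and by library total. Comparison between genes is approximate, because levels also varied with transcript GC content from library to library, as described below. Depth, read from the FPKM that 1 fragment is worth, lay between 13.9 and 21.2 M (mega) fragments, and the lowest value of any member rested on about 269 fragments (Cfb in control 2). These figures cover counting error only.

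Control 3 and LPS+PA-BSA 1 stood apart from the other libraries of their groups. The first component of the departures of all tested genes from their group means held 68.2% of their variance, with weights of -0.69 for control 3 and -0.41 for LPS+PA-BSA 1 and between 0.078 and 0.39 for the other 4. The 25% of genes with the highest transcript GC content (above 53.7%) had a mean departure of -0.32 in control 3 and of -0.20 in LPS+PA-BSA 1 on the log2(FPKM + 1) scale, and of 0.073 to 0.19 in the other 4 libraries. The members divide along this line. In control 3 the level of C1qa was 0.328 times the mean of controls 1 and 2, that of C1qc 0.365 times, C1qb 0.433 times, Cfp 0.482 times and C5ar1 0.528 times. For C3, Cfb, Serping1 and C3ar1 this factor was between 0.953 and 1.18. Transcript GC content was 57.4% to 59.5% for the C1q chains and 56.3% for Cfp, against 53.3% for C3, 52.9% for Cfb, 52.3% for Serping1, 49.2% for C5ar1 and 43.0% for C3ar1, so C5ar1 departed in control 3 without a GC-rich transcript. The part of this library difference in the results was not tested. An earlier grouping of these libraries placed LPS+PA-BSA 2 with control 3 and LPS+PA-BSA 1, whereas here it had a weight of 0.078. Values within both of those sets, and without control 3 and LPS+PA-BSA 1, are given where they change a result. Each set has 1 library in an arm, which the fit assumes to vary like the pair in the other arm, so a call gained or lost within a set says little.

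After LPS and PA-BSA the mRNAs of C3 and factor B were higher, those of the 3 C1q chains, the C5a receptor and the C1 inhibitor were lower, and those of properdin and the C3a receptor did not pass the test. All 9 members reached 1 FPKM in at least 3 libraries, the filter for testing, and the test was limma on log2(FPKM + 1) over 11364 genes with Benjamini-Hochberg adjustment. At an adjusted p under 0.05, 2 members were higher, where 22.2% of all tested genes were, and 5 were lower, where 32.9% were (55.1% in either direction). In 7 of the 9 the values of the groups did not overlap, as in 63.2% of all tested genes. The median log2 fold change of the members was -0.66, and that of all tested genes was -0.11. Quantile normalization moved the latter to 0.01 and the share of calls that were higher from 40.3% to 50.8%, and median-ratio scaling moved them to -0.01 and 50.9%. The directions of the 7 called members were the same under both. The authors' deposited table marks 6 of the 9 as significant, all 7 above but Serping1 (the authors' log2 fold change -0.69, q = 0.0106).

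**Figure D1:**
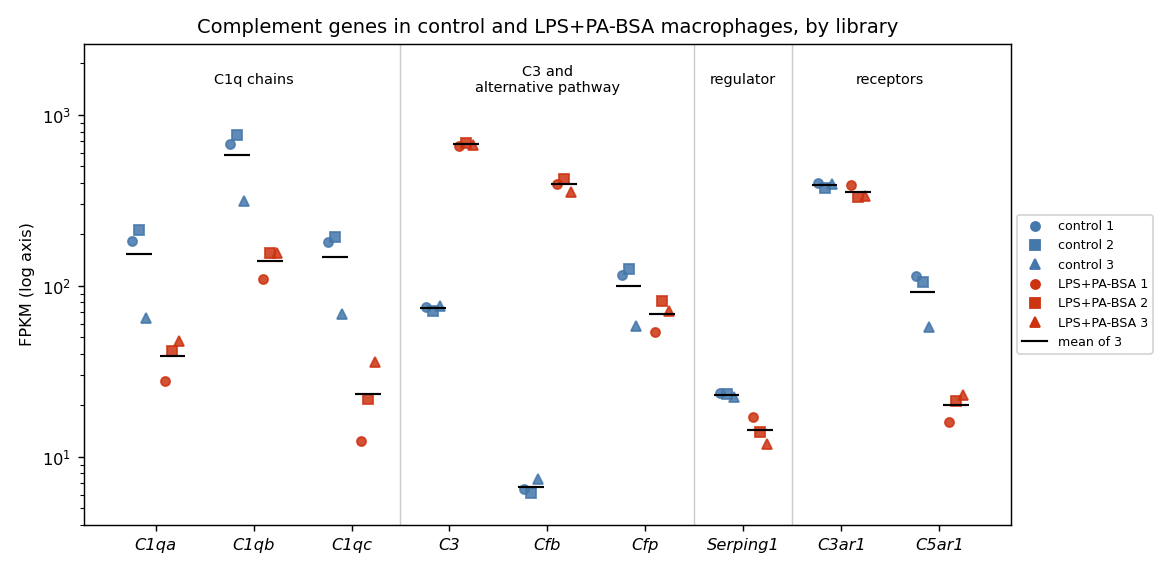
FPKM of the 9 genes (log axis) in each library, with controls in blue, LPS+PA-BSA in red, a symbol for each replicate number and a black line at the mean of 3. C3 and Cfb of treated cells lie far above the controls, the C1q chains and C5ar1 lie below them with control 3 lowest among the controls, and Cfp and C3ar1 overlap.

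The C1q chains are encoded side by side on the minus strand of chromosome 4, within 18675 bases (chromosome 4, 136880129 to 136898803 in mm10, in the order C1qb, C1qc, C1qa), and all 3 fell. Like the other members each is annotated as protein-coding in GENCODE M21, and its FPKM is for the whole gene. C1qb, the B chain, was at 679, 764 and 312 FPKM in controls 1 to 3 and at 110, 156 and 155 FPKM in LPS+PA-BSA 1 to 3. The groups did not overlap, and control 3 was the lowest control. Its mean went from 585 ± 240 to 140.3 ± 26.5 FPKM (SD, n = 3 per group), 4.17-fold lower, and its log2 fold change on the log2(FPKM + 1) scale was -1.97 (SE 0.348, limma adjusted p = 0.00357). Among all genes of the table C1qb had rank 44 by mean level in controls and rank 271 after treatment. Because the libraries are bulk samples, fewer cells that express a gene and less of its RNA per cell cannot be told apart.

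C1qa, the A chain, was at 183, 213 and 64.9 FPKM in controls 1 to 3 and at 27.9, 41.4 and 47.9 FPKM in LPS+PA-BSA 1 to 3. The groups did not overlap, but control 3 lay nearer to the treated libraries than to the other controls. Its mean went from 153.7 ± 78.3 to 39.05 ± 10.2 FPKM (SD, n = 3 per group), with a log2 fold change of -1.81 (SE 0.457, limma adjusted p = 0.0152). The call was lost without control 1 (log2 fold change -1.60, limma adjusted p = 0.0519) and without LPS+PA-BSA 1 (-1.60, adjusted p = 0.0533). C1qc, the C chain, was at 180 and 194 FPKM in controls 1 and 2 and 68.2 FPKM in control 3, and at 12.5, 21.9 and 35.9 FPKM in LPS+PA-BSA 1 to 3. It showed the largest fall of the 3 chains, from 147 ± 69.0 to 23.4 ± 11.8 FPKM (SD, n = 3 per group), and LPS+PA-BSA 3 was the highest of the treated libraries.

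The size of the C1q change depended on the libraries and on the GC trend, while its direction did not. Within controls 1 and 2 and LPS+PA-BSA 3 the log2 fold changes were -2.02 for C1qa, -2.20 for C1qb and -2.35 for C1qc. Within control 3, LPS+PA-BSA 1 and LPS+PA-BSA 2 they were -0.91, -1.25 and -1.98. With the trend of every library on GC content and transcript length taken out they were -1.16, -1.45 and -2.06 (limma adjusted p = 0.00776, 0.000763 and 0.00211). Without control 3 and LPS+PA-BSA 1 together they were -2.13, -2.20 and -2.69.

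The ratios of the chains within a library do not depend on how the library was scaled. C1qa was at 0.270, 0.279 and 0.208 times C1qb in controls 1 to 3 and at 0.255, 0.266 and 0.308 times in LPS+PA-BSA 1 to 3, so the A and B chains kept overlapping proportions. C1qc was at 0.985, 0.911 and 1.05 times C1qa in controls 1 to 3 and at 0.446, 0.529 and 0.751 times in LPS+PA-BSA 1 to 3. These groups did not overlap: the C chain mRNA was about level with the A chain mRNA in controls (ratio 0.982 ± 0.0701, SD, n = 3) and lower than it in each treated library (0.575 ± 0.158). C1qc was at 0.266, 0.254 and 0.219 times C1qb in controls 1 to 3 and at 0.114, 0.140 and 0.231 times in LPS+PA-BSA 1 to 3. These groups overlapped, since LPS+PA-BSA 3 lay above control 3.

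The promoters of C1qb and C1qc are shown because these neighbouring genes fell together. The sequences are RefSeq's for GRCm38.p6, from 250 bases before to 50 bases after the annotated start, which had entries for 6 of the 9 members (the other 3 are C1qa, Cfb and Serping1). Capitals mark a match, on either strand, to 1 of 5 motifs: GAAANNGAA (interferon response element), TTCNNNGAA (STAT site), GGANNTTCC (9 bases of the NF-kB site), GAGGAAGT (PU.1, a macrophage transcription factor) and TGCTGAC (MAF site).
C1qb promoter, chr4:136886151-136886450, minus strand: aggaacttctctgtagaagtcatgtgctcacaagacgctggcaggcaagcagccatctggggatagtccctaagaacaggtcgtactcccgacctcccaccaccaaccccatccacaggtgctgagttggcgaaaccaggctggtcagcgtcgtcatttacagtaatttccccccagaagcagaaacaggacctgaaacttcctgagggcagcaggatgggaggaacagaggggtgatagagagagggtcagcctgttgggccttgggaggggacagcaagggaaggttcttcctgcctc
C1qc promoter, chr4:136892865-136893164, minus strand: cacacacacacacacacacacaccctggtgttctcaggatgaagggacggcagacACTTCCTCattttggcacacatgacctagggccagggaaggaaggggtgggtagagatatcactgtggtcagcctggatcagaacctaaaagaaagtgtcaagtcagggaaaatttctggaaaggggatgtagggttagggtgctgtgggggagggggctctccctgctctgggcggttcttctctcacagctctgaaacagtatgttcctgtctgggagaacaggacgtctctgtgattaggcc
The C1qc promoter held the PU.1 letters on the opposite strand, starting 195 bases before the start site, as 3.2% of 32851 promoters do on either strand. The C1qb promoter held none of the 5 motifs in this window. A match is a description of letters and not of binding.

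Among 8 macrophage markers 6 fell beside the C1q chains, against 32.9% of all tested genes, 1 rose, against 22.2%, and 1 did not pass the test. Their summed level, most of it Lyz2, was 18781 to 21892 FPKM in controls and 11880 to 14216 FPKM in treated libraries. Adgre1, a marker gene of mouse macrophages, was at 1303 to 1552 FPKM in controls and 1266 to 1629 FPKM in treated libraries, with overlapping groups. The part of these markers in the fall of C1q was not tested.

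C3 and Cfb, at the centre of the alternative pathway, rose in every treated library. C3, on chromosome 17 at 57203970 to 57228136 in mm10, was at 75.3, 71.4 and 76.0 FPKM in controls 1 to 3 and at 659, 687 and 668 FPKM in LPS+PA-BSA 1 to 3. The libraries of each group agreed closely, with a coefficient of variation of 3.30% in controls and 2.14% after treatment. The mean rose 9.05-fold, from 74.2 ± 2.45 to 672 ± 14.4 FPKM (SD, n = 3 per group), with a log2 fold change of 3.16 (SE 0.0693, limma adjusted p = 1.02e-06). By mean level C3 moved from rank 477 to rank 43 of the table, about the place C1qb had held in controls.

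Cfb, whose protein supplies the protease of the alternative C3 convertase, was at 6.47, 6.12 and 7.41 FPKM in controls 1 to 3 and at 397, 424 and 356 FPKM in LPS+PA-BSA 1 to 3. Every treated library was far above every control. The mean rose 58.9-fold, from 6.66 ± 0.669 to 392 ± 34.2 FPKM (SD, n = 3 per group), with a log2 fold change of 5.68 (SE 0.102, limma adjusted p = 1.02e-06), at rank 10 from the top of the 11364 genes tested. By mean level it moved from rank 5223 to rank 78. Cfb lies on chromosome 17 at 34856374 to 34862518 in mm10, 85 bases from its paralogue C2 on the same strand. Gm20547, a protein-coding gene annotated over both, can share reads with them and had no deposited value under that symbol. Cfb was at 0.0859, 0.0856 and 0.0976 times C3 in controls 1 to 3 and at 0.602, 0.617 and 0.533 times in LPS+PA-BSA 1 to 3, so it rose more than C3 did in each treated library.

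Cfp (chromosome X, 20925454 to 20931555), properdin, which stabilises the convertase that C3 and factor B form, did not follow them. It was at 115, 125 and 58.0 FPKM in controls 1 to 3 and at 53.4, 82.0 and 71.5 FPKM in LPS+PA-BSA 1 to 3, with overlapping groups because of control 3 (log2 fold change -0.47, 95% interval -1.22 to 0.28, limma adjusted p = 0.24). Without control 3 it was lower in treated cells and passed the test (log2 fold change -0.81, limma adjusted p = 0.00851), as it did without control 3 and LPS+PA-BSA 1 together (-0.64, adjusted p = 0.00280). Within control 3, LPS+PA-BSA 1 and LPS+PA-BSA 2, with 1 control, the value was 0.19 (SE 0.274, limma adjusted p = 0.659), which cannot be told from 0, and after removal of the GC and length trend it was -0.047 (adjusted p = 0.828).

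The C3 promoter is shown as that of the most abundant complement mRNA after treatment, in the same window and with the same motifs marked.
C3 promoter, chr17:57228087-57228386, minus strand: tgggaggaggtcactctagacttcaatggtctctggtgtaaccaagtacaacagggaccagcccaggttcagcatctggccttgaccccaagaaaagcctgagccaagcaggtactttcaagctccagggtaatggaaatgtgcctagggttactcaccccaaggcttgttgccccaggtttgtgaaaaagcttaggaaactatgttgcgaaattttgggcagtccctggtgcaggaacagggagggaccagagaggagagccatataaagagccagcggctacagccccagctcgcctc
It held none of the 5 motifs. The NF-kB letters occurred in 4.26% of all promoters, the interferon response element in 8.56%, the STAT site in 8.3% and the MAF site in 4.67%. That no motif was found says only that these letters are not in these 300 bases.

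**Figure D2:**
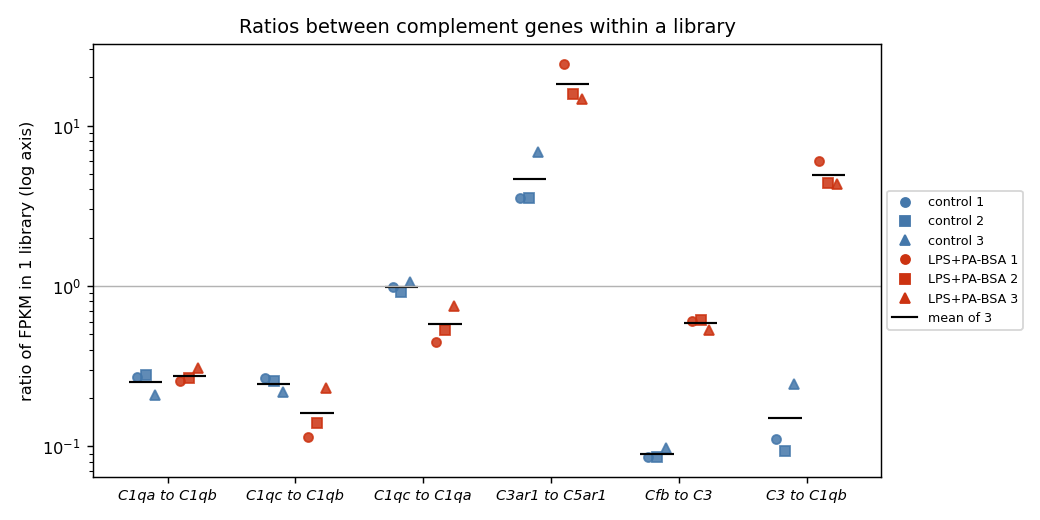
Ratio of the FPKM of a pair of genes within each library (log axis; symbols as for the levels by library, black line at the mean of 3). The C3ar1 to C5ar1, Cfb to C3 and C3 to C1qb ratios of treated libraries lie above all controls, the C1qc to C1qa ratio lies below them, and the C1qa to C1qb and C1qc to C1qb ratios overlap.

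The balance between the classical recognition chain and the central component turned over. C3 was at 0.111, 0.0935 and 0.243 times C1qb in controls 1 to 3 and at 6.01, 4.41 and 4.30 times in LPS+PA-BSA 1 to 3. C1qb was thus the more abundant mRNA per length in each control and C3 in each treated library. The median log2 fold change was -1.97 over the 3 C1q chains, against 3.16 for C3 and 5.68 for Cfb.

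Serping1 (chromosome 2, 84765387 to 84775444), the inhibitor of C1r, C1s and the MASP proteases, fell. It was at 23.6, 23.3 and 22.4 FPKM in controls 1 to 3 and at 17.1, 14.1 and 11.9 FPKM in LPS+PA-BSA 1 to 3, without overlap. The mean went from 23.1 ± 0.658 to 14.3 ± 2.59 FPKM (SD, n = 3 per group), 1.61-fold lower (log2 fold change -0.66, SE 0.128, limma adjusted p = 0.00525). Within control 3, LPS+PA-BSA 1 and LPS+PA-BSA 2, with 1 control and the spread taken from the treated pair, the value was -0.50 and did not pass the test (limma adjusted p = 0.124).

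Of the anaphylatoxin receptors C5ar1 fell and C3ar1 did not pass the test. C5ar1 (chromosome 7, 16246743 to 16259540), the receptor of C5a, was at 114, 105 and 57.8 FPKM in controls 1 to 3 and at 16.0, 21.2 and 23.0 FPKM in LPS+PA-BSA 1 to 3. All treated libraries were below all controls. The mean went from 92.2 ± 30.1 to 20.1 ± 3.61 FPKM (SD, n = 3 per group), 4.59-fold lower (log2 fold change -2.10, SE 0.272, limma adjusted p = 0.000905). After removal of the GC and length trend the value was -2.18, and within control 3, LPS+PA-BSA 1 and LPS+PA-BSA 2 where the control arm has no replicate, it was -1.60.

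C3ar1 (chromosome 6, 122847138 to 122856161), the receptor of C3a, was at 399, 373 and 396 FPKM in controls 1 to 3 and at 390, 333 and 338 FPKM in LPS+PA-BSA 1 to 3, with overlapping groups. Its log2 fold change was -0.14 (95% interval -0.36 to 0.07, limma adjusted p = 0.218). It was past the threshold on the lower side after quantile normalization (-0.32, adjusted p = 0.0328), after removal of the GC and length trend (-0.27, adjusted p = 0.0101) and without control 3 and LPS+PA-BSA 1 together (-0.20, adjusted p = 0.0456). After median-ratio scaling the value was -0.019 (limma adjusted p = 0.874), so the call depended on the scaling. C3ar1 was at 3.51, 3.54 and 6.85 times C5ar1 in controls 1 to 3 and at 24.3, 15.7 and 14.7 times in LPS+PA-BSA 1 to 3. The ratio was 4.64 ± 1.92 in controls and 18.2 ± 5.30 after treatment (SD, n = 3 per group), without overlap.

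The C5ar1 promoter is shown because it was the receptor that changed, in the same window as above.
C5ar1 promoter, chr7:16259289-16259588, minus strand: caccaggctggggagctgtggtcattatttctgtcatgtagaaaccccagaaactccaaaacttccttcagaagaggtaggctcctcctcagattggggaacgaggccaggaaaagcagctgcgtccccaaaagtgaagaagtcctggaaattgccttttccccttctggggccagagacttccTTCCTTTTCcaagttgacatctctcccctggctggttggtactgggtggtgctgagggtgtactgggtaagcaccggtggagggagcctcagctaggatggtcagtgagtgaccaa
It held the letters of the interferon response element on the opposite strand, starting 66 bases before the start site.

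Of 44 other complement genes listed by role, 8 had no entry under that symbol among the 29957 genes and 19 were below the filter. The remaining 17 were tested. Of these 3 rose and 10 fell, against 22.2% and 32.9% of all tested genes, and their median log2 fold change was -0.46. Of the terminal components of the membrane attack complex, Hc (C5), C6, C7 and C8a were each at 0.143 FPKM or less in every library. C8b and C9 had no entry. C8g, at 1.22 ± 0.248 FPKM in controls and 0.609 ± 0.101 FPKM after treatment (SD, n = 3 per group), passed the test as lower (limma adjusted p = 0.0109).

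Of the membrane regulators, Cd55, decay-accelerating factor, went from 23.0 ± 2.61 down to 17.0 ± 1.94 FPKM (SD, n = 3 per group; limma adjusted p = 0.0251). Cd59a and Cr1l did not pass the test.

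Of 6 tested receptors of complement components and fragments 5 fell, against 32.9% of all tested genes. The other, C1qbp, which encodes a protein that binds the C1q globular heads, had a mean of 8.11 ± 1.28 FPKM in the controls and of 9.08 ± 0.535 FPKM in treated libraries (SD, n = 3 per group) and did not pass the test. Cd93, a phagocytic receptor once described as a C1q receptor, was at 63.6, 66.3 and 65.5 FPKM in controls 1 to 3 and at 20.8, 19.2 and 16.3 FPKM in LPS+PA-BSA 1 to 3. C5ar2, the second receptor of C5a, fell, with a mean of 1.83 ± 0.126 FPKM in controls and 0.281 ± 0.110 FPKM after treatment (SD, n = 3 per group; limma adjusted p = 0.000117), in the same direction as C5ar1. Of the integrin chains of complement receptors 3 and 4, Itgax fell from 9.85 ± 1.54 to 3.22 ± 0.704 FPKM and Itgb2 from 345 ± 64.6 to 167 ± 27.4 FPKM, while Itgam fell less, from 214 ± 8.01 to 180 ± 10.03 FPKM (limma adjusted p = 0.0335).

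Genes of the classical and lectin initiating steps moved in both directions. C1ra, a C1r protease of the C1 complex, rose from 7.27 ± 0.483 to 9.41 ± 0.472 FPKM, whereas C1s1, its partner C1s, fell from a mean of 5.83 ± 0.803 to 3.54 ± 0.964 FPKM (SD, n = 3 per group; limma adjusted p = 0.0142 and 0.0227). C1rl, a C1r-like protease, rose from 2.02 ± 0.179 to 4.21 ± 0.803 FPKM (limma adjusted p = 0.00286), and C1rb, a further C1r gene, did not pass the test. Masp1, a protease of the lectin pathway, fell from 1.68 ± 0.0704 to 0.472 ± 0.10 FPKM without overlap of the groups (limma adjusted p = 0.000237). C2, the classical counterpart of factor B, rose from 1.47 ± 0.110 to 3.03 ± 0.502 FPKM (limma adjusted p = 0.00229). Fcna, ficolin A of the lectin pathway, fell from 7.02 ± 2.96 to 2.33 ± 0.20 FPKM (limma adjusted p = 0.0137), with control 3 at 3.63 FPKM and controls 1 and 2 at 8.40 and 9.03 FPKM. C4b, which encodes the other part of the classical convertase, stayed below the filter at 0.428 to 0.733 FPKM. So did C4a, a near-identical copy that can share reads with it.

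**Figure D3:**
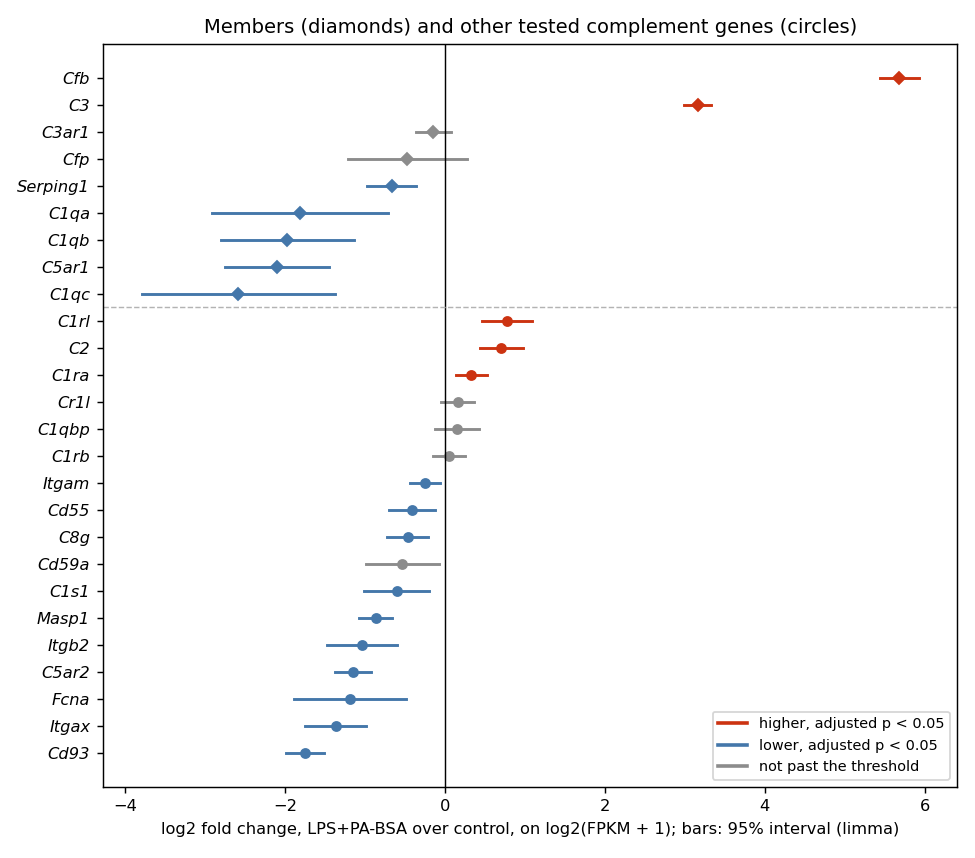
Log2 fold change of LPS+PA-BSA over control on the log2(FPKM + 1) scale with its 95% interval from limma, for the 9 members (diamonds, above the dashed line) and the 17 other complement genes tested (circles). Red is higher and blue lower at an adjusted p under 0.05, and grey did not pass. Cfb and C3 stand to the right at 5.68 and 3.16, and the C1q chains, C5ar1 and Cd93 to the left.

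Markers of other cells that make complement were measured beside these results. Fibroblasts and other stromal cells make C3, Cfb and Serping1, and 7 of 8 stromal markers reached 1 FPKM. Their summed level was 313 to 390 FPKM in controls and 50.2 to 61.9 FPKM in treated libraries, with 6 lower and 1 (Dcn) higher. Col1a1 was at 64.8, 69.5 and 31.6 FPKM in controls 1 to 3 and at 3.97, 5.72 and 6.07 FPKM in LPS+PA-BSA 1 to 3. Most of the sum in controls was Acta2, at 216.8 ± 14.1 FPKM in controls and 16.54 ± 1.665 FPKM after treatment (SD, n = 3 per group). Dcn went from 4.91 ± 1.32 to 23.3 ± 4.08 FPKM. The part of these markers in the results was not tested.

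Neutrophils express C5ar1 and properdin. Of 9 neutrophil markers, Ly6g was at 0.163 FPKM or less in every library and Mpo at 0.050 FPKM or less. S100a9 was at 11.2, 9.61 and 1.80 FPKM in controls 1 to 3 and at 1.385, 2.87 and 7.19 FPKM in LPS+PA-BSA 1 to 3. Camp was at 1.25, 1.17 and 0.288 FPKM in controls 1 to 3 and at 0.219, 1.33 and 0.763 FPKM in LPS+PA-BSA 1 to 3. Neither S100a9 nor Camp passed the test. The summed level was 10.6 to 22.3 FPKM in controls and 59.4 to 75.4 FPKM in treated libraries. It was led in the latter by S100a8, which activated macrophages also express. S100a8 was at 7.78, 6.11 and 8.30 FPKM in controls 1 to 3. The part of these markers in the levels of Cfp and C5ar1 was not tested. T and NK cell markers summed to 0.202 FPKM or less in every library, and erythroid markers to 5.43 FPKM or less. Sums were 8.59 to 11.3 FPKM in controls and 3.89 to 5.45 FPKM in treated libraries for dendritic cells, most of it Itgax, which macrophages share. For B cells they were 8.54 to 10.3 and 1.15 to 1.24 FPKM, nearly all Cd79b, and for mast cells and basophils 1.69 to 2.07 and 0.965 to 2.34 FPKM.

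Genes whose level followed a member most closely were picked by the Pearson correlation of log2(FPKM + 1) over the 6 libraries, outside the members. The libraries fall into 2 groups, so these values restate the group difference. For C1qb and C5ar1 they also follow the spread within groups, where control 3 was the lowest control. The values are given as a description. For C1qb the genes were Galnt2, Agpat3 and Pip4k2b (0.9994 to 0.9999), and for C3 they were Tarm1, Mx2 and Usp18 (0.9998 to 0.9999). For C5ar1 they were Akap1, Tbc1d22a and Tsc22d3 (0.9990 to 0.9992). Usp18, an interferon-induced protease of ISG15, went from 11.7 to 209 FPKM on average, and Galnt2, a glycosyltransferase, from 24.1 to 8.89 FPKM.

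**Figure D4:**
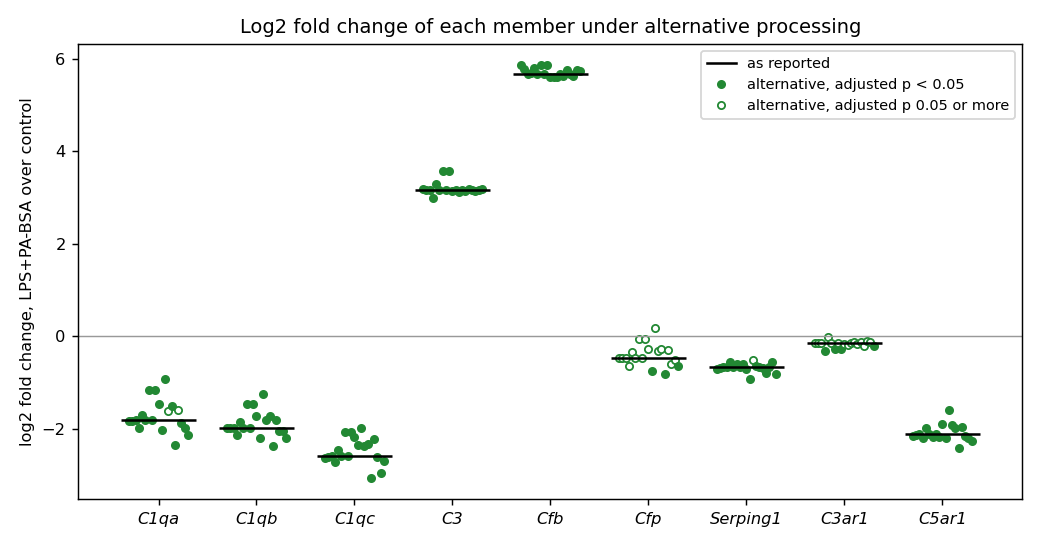
Log2 fold change of each member as reported (black line) and under each of 19 alternatives (points, filled where the adjusted p is under 0.05). C3 lies between 3.00 and 3.57 and Cfb between 5.61 and 5.87, the C1q chains spread over about 1 unit or more on the lower side, and 1 Cfp value, from the set with 1 control, is above 0.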

How the data were processed

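Poly(A) RNA of 6 BMDM samples was sequenced as strand-marked paired-end libraries, per the labels' protocols. The authors deposited FPKM values, 1 column per library, with a fold change as a ratio, its log2, and p-values and q-values per the file headers. Per the submitters' processing notes the tools include StringTie 2.1.6, HISAT2 2.2.1 and cutadapt 1.9, as well as edgeR and DESeq2, on mm10. Their roles, the annotation and the tool behind the p-values are not given in the sources used here. FPKM is relative to each library's total, so abundant transcripts that change move the others.

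No count model was fitted. The 11364 genes reaching 1 FPKM in at least 3 libraries were tested two-sided with limma 3.58.1 (R 4.3.3) with a variance trend on log2(FPKM + 1), which understates changes of low genes, at a Benjamini-Hochberg adjusted p under 0.05. The script was tested on simulated data. Positions, transcript lengths and GC content come from GENCODE M21 (mm10), which held 29871 of 29957 gene IDs. Depth was read from FPKM steps in 16054 genes with 1 transcript (tolerance 0.5%). Python 3.11.15 with pandas 2.3.3 and matplotlib 3.10.9 was used. No libraries were identical.

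Members and gene lists were chosen with earlier results of these data known. All 9 members are named. Of the other complement genes, the rule named those called with a log2 fold change beyond 1 either way (5: Cd93, C5ar2, Itgax, Itgb2 and Fcna), and the rest that are named were chosen after their values were seen. The 3 genes most like C1qb, C3 and C5ar1 are named. One listed complement gene and 1 listed macrophage marker are not reported here.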

Additional observations from a re-analysis of the deposited data

How the results depend on the processing

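Each member was refitted under 19 alternatives, 18 chosen with the design and 1 (leaving out control 3 and LPS+PA-BSA 1 together) after seeing the data. Among the 18, a term for the library sets and the fits within each set used the earlier grouping of these libraries. Those alternatives were therefore not chosen blind to the data. Of 171 member values 160 kept their direction and side of the threshold. The calls lost were C1qa without control 1 or without LPS+PA-BSA 1 and Serping1 within control 3, LPS+PA-BSA 1 and LPS+PA-BSA 2 (-0.50). In that set, with 1 control, Cfp was at 0.19, all genes called fell to 1197 higher and 1797 lower (2523 and 3736 as reported) and other complement genes called lower to 6 (10 as reported). Calls gained were C3ar1 after quantile normalization (-0.32), after GC and length removal (-0.27, also with the replicate block) and without control 3 and LPS+PA-BSA 1 together (-0.20). Cfp gained a call without those 2 libraries (-0.64), where other complement genes called higher were 5 (3 as reported), and also without control 3 (-0.81) and within controls 1 and 2 and LPS+PA-BSA 3 (-0.74). With single libraries left out, log2 fold changes ran from -2.34 to -1.49 for C1qa, -2.37 to -1.73 for C1qb, -3.06 to -2.21 for C1qc, 3.13 to 3.18 for C3, 5.62 to 5.75 for Cfb, -0.81 to -0.26 for Cfp, -0.79 to -0.55 for Serping1, -0.22 to -0.10 for C3ar1 and -2.40 to -1.92 for C5ar1. Same-numbered libraries had correlations of departures from the group means of -0.472, 0.0907 and -0.589, and 0 of 6 libraries were closest to their own number. These values cannot show whether the samples were paired, because 1 component, led by control 3 and LPS+PA-BSA 1, held 68.2% of the departures. The replicate block gave 1918 genes higher and 2820 lower and changed no call of a member. The cause of the differences between library sets was not tested. Groups of 3 cannot show differences smaller than the spread between libraries, which is widest for the C1q chains.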
